A study of Mus musculus with 20 samples.

Results

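The comparison of Zmym2-/- with control mouse embryonic stem cells (mESCs) covered 4 of the 20 RNA-seq libraries of the series: the 2 knockout and the 2 control lines that were sequenced undifferentiated, on day 0, in medium with serum and the cytokine LIF. They were chosen by their labels alone, and the contrast was read across all genes. All 4 lines derive from V6.5, a male hybrid mESC line of strain C57BL/6x129/SvJae, and were grown on gelatin without feeder cells. The control lines (NT) were nucleofected with Cas9 and a non-targeting sgRNA, so they carried the same handling as the knockout lines. The knockout lines (KO) received Cas9 protein with an sgRNA that produces a frameshift in the first coding exon of Zmym2. Each line is 1 clone, so a difference between clones that predates editing enters the comparison as if it were an effect of genotype. The other libraries were day 3 embryoid bodies (EBs, aggregates that differentiate without LIF) made from the same 4 lines, and 12 whole E8.5 embryos, 6 Zmym2+/+ and 6 Zmym2-/-.

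ZMYM2 is a zinc finger protein of the MYM type that binds SUMO-modified chromatin proteins and associates with the LSD1, CoREST and HDAC corepressor complex. In mESCs, silencing of germline genes, of young transposons and of genes typical of the 2-cell embryo is maintained by overlapping systems, among them DNA methylation, the PRC1.6 complex and the TRIM28 and SETDB1 pathway. mESCs in serum and LIF hold a mixture of naive cells and cells closer to the formative state, and LIF acts through STAT3 on Klf4, Tfcp2l1 and other naive factors.

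Gene-assigned reads totalled 47177872 and 36535015 in NT lines 1 and 2, and 34858763 and 32016880 in KO lines 1 and 2. At least 1 CPM (counts scaled to library size) was reached by 13313 to 13765 genes per line. Correlations of log2 CPM were 0.997 between the NT lines, 0.995 between the KO lines and 0.983 to 0.988 across genotypes, so the replicate lines resembled each other more than they resembled the other genotype. Pou5f1 (Oct4) ran at 1578 and 1642 CPM in the NT lines and 1734 and 1651 CPM in the KO lines. Sox2 ran at 498, 482, 488 and 509 CPM. Both core pluripotency markers were therefore abundant in all 4 lines, and neither passed the test (adjusted p = 0.507 and 0.854, edgeR's quasi-likelihood test with Benjamini-Hochberg adjustment over 20159 genes, which applies to all adjusted p-values given here).

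Zmym2 itself (chr14:56886653-56962701, GRCm38) gave 66.8 and 70.8 CPM in the NT lines and 29.0 and 27.0 CPM in the KO lines. The 2 groups did not overlap, and the log2 fold change was -1.30 ± 0.10 (SE, n = 2 lines a group, adjusted p = 3.07e-06). A frameshifted locus can still give a transcript, so the RNA level does not measure the loss of protein. Of the 7 genes of the ZMYM family, only Zmym2 passed the test. Zmym3 gave a log2 fold change of -0.28 (adjusted p = 0.0850) and Zmym4 one of 0.20 (adjusted p = 0.193).

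Across the 20159 genes with at least 10 counts in all, 2068 (10.3%) were higher and 1803 (8.94%) lower in the KO lines at an adjusted p under 0.05. The counts were near each other, yet the sizes were not. Among the higher genes, 887 changed less than 2-fold, 471 from 2- to 4-fold and 710 (3.52% of genes tested) at least 4-fold. Among the lower genes, 1363 changed less than 2-fold, 367 from 2- to 4-fold and 73 (0.362%) at least 4-fold. The median log2 fold change over all genes was 0.01, which the scaling of the libraries sets near 0, so a shift of all genes together could not be seen. Without NT line 2, 1330 genes were higher and 1021 lower, and without KO line 2, 118 genes were at least 4-fold lower. On the scale log2(RPKM + 1), which shrinks changes of low genes, limma called 58 genes higher and 5 lower by at least 4-fold.

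**Figure D1:**
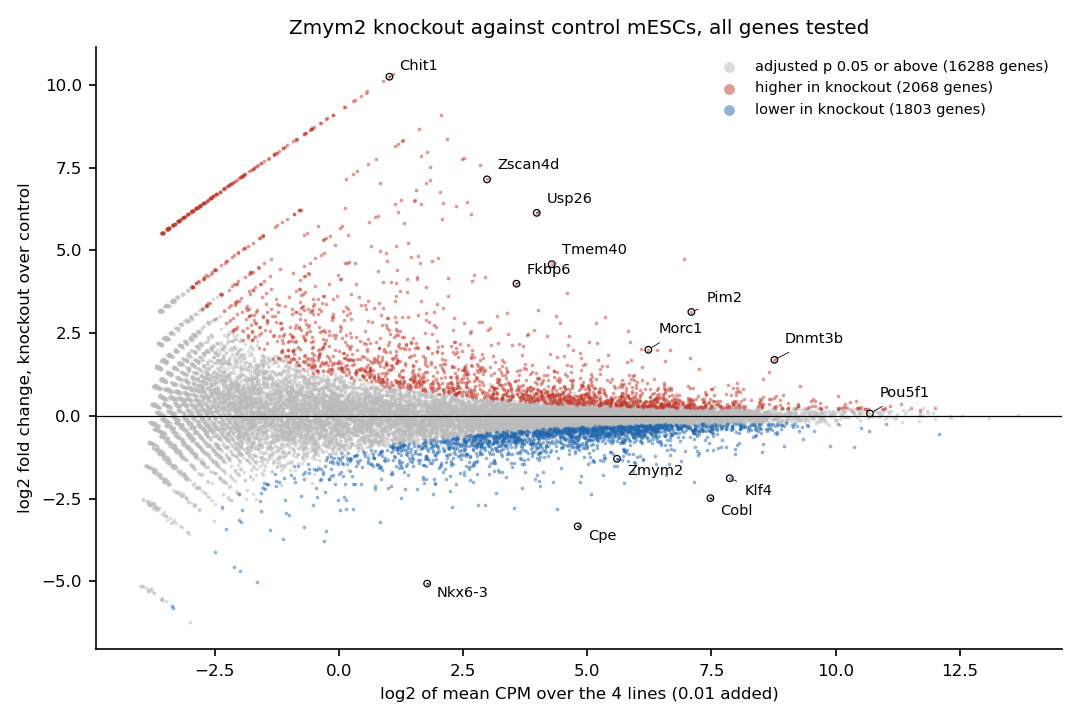
Each point is 1 of the 20159 genes, with the mean level over the 4 lines on the x axis (log2 CPM) and the log2 fold change, knockout over control, on the y axis; coloured points passed an adjusted p of 0.05. The upper left of the cloud holds many genes of low level with large increases, while the lower calls (1803 genes) mostly lie within 2-fold of 0.

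The 710 genes that rose at least 4-fold had a median level of 0.024 RPKM in the NT lines and 0.547 RPKM in the KO lines, and 255 of them exceeded 1 RPKM in the KO lines. Of these 710 genes, 198 had no read in either NT line, and all 198 passed 4-fold when the NT group was set to its floor (3 counts in total), with bounds from 4.19-fold to 120-fold. A gene with no read in the controls entered the table through its knockout reads and could not fall; over all genes tested, 221 had no read in the NT lines and 20 none in the KO lines. Genes were also sorted by their mean level over the 4 lines. Under 0.1 RPKM 170 of 2558 rose and 17 fell, and from 0.1 to 1 RPKM 668 of 5773 rose and 302 fell. From 1 to 10 RPKM 747 of 7257 rose and 938 fell, and from 10 to 100 RPKM 404 of 4036 rose and 498 fell. Over 100 RPKM 79 of 535 rose and 48 fell, so falls outnumbered rises only between 1 and 100 RPKM. At least 4-fold increases made up 2.7% of protein coding genes, 13.4% of 755 lincRNAs and 20.8% of 149 unprocessed pseudogenes. Among the 13821 genes that reached 1 CPM in 2 lines, 291 rose and 39 fell by at least 4-fold.

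Among the gene lists, that of the 2-cell-like state, in which a rare mESC expresses transcripts of the 2-cell embryo, had the largest median increase. Of 42 such genes tested, 36 rose and none fell, 35 of them at least 4-fold, and 11 had no read in either NT line. Those 11 were testable only through the KO lines and could not fall, and 8 further members of the list were not in the table. Of the 31 members with control reads, 26 rose and none fell, beside 10.3% and 8.94% of all genes. The median log2 fold change of the 42 genes was 6.48, or 5.45 with the genes at 0 in the controls set to their bounds, against 0.01 over all genes. The remaining 6 genes (Tdpoz1, Eif1a, Pramel6, Obox6, Kdm4d and AF067063) did not pass the test.

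Zscan4 genes, which encode zinc finger proteins of the 2-cell embryo linked to telomere maintenance, lie as near-identical copies on chromosome 7. The 9 measured copies summed to 0.337 and 0.439 CPM in the NT lines and to 117 and 41.2 CPM in the KO lines, and all 9 rose. The KO mean was 204 times the NT mean, and KO line 1 held 2.84 times as much as KO line 2. Because reads can be split among such copies, the sum is firmer than any single copy. Zscan4a (chr7:10794242-10799057) gave 0.042, 0.055, 16.1 and 6.71 CPM in NT line 1, NT line 2, KO line 1 and KO line 2, and Zscan4d gave 0.084, 0.137, 24.6 and 6.77 CPM. Zscan4-ps1 had no read in the NT lines and 5.67 and 2.78 CPM in the KO lines, at least 120-fold higher. Despite its name GENCODE marks it as protein coding, and Zscan4a as an unprocessed pseudogene.

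The deubiquitinase genes of the Usp17l family also rose, all 5 measured members, with summed levels of 0.337, 0.302, 40.9 and 22.8 CPM in the same order of lines. Usp17le gave 0.168, 0.082, 15.1 and 8.56 CPM (log2 fold change 6.47 ± 0.40, adjusted p = 4.79e-07). All 4 Tdpoz genes, which encode TRAF and POZ domain proteins, had no read in the NT lines and summed to 9.4 and 4.54 CPM in the KO lines, and 3 of the 4 passed the test. The 2 Tcstv genes were likewise at 0 in the NT lines and summed to 5.44 and 2.32 CPM, and both rose. These too are families of similar copies.

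Zfp352 and Duxf3 are further markers of the 2-cell-like state, and Duxf3, like the families above, has related copies. Zfp352 was at 0 in both NT lines and at 2.82 and 0.804 CPM in the KO lines, at least 51.6-fold higher. Duxf3, a copy of the Dux homeobox factor that activates 2-cell genes, had 3 and 2 counts in the NT lines and 39 and 33 counts in the KO lines (log2 fold change 4.11 ± 0.59, adjusted p = 0.000341). Over the whole list, 39 of 42 genes were higher in KO line 1 than in KO line 2, so the 2 knockout clones differed in how far the set had risen, while both stood well above the controls. The number that passed was 34 without KO line 1 and 37 without KO line 2. Bulk RNA cannot tell a larger number of cells in such a state from more RNA per cell, and this holds for every list below.

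**Figure D2:**
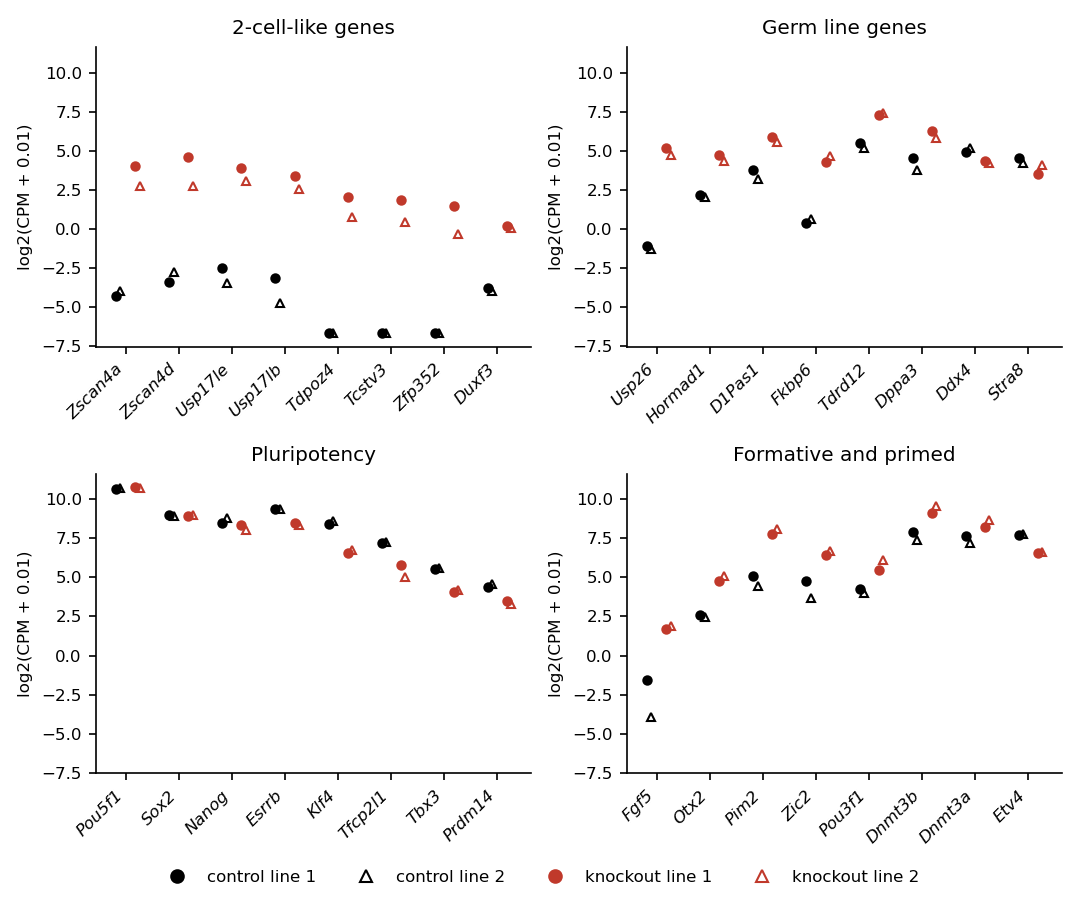
Levels of named genes in each line, as log2(CPM + 0.01) on the y axis, with control lines in black and knockout lines in colour, circles for line 1 and triangles for line 2. In the panels of 2-cell-like genes and of formative and primed genes, the control and knockout points of each gene do not overlap; Zscan4a sits at 0.042 and 0.055 CPM in the controls and at 16.1 and 6.71 CPM in the knockouts.

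Genes that rose strongly also sat beside each other. Of the 709 genes at least 4-fold higher that had a position, 168 (23.7%) had a nearest neighbour with the same call, against 3.42% of all genes. For lower genes the share was 11.4%, against 7.64% of all genes. Along the genome, 13 runs held at least 4 consecutive tested genes that were all at least 4-fold higher. The longest, chr12:87767802-87919857, spanned 9 genes that included BB287469, Gm2016 and Gm2022. A run of 8 genes from Tdpoz4 to Spopfm1 (chr3:93796398-94266784) included 7 without a read in the controls. Further runs covered Zscan4e and Zscan4f (chr7:11306378-11614112) and Duxf3 (chr10:58222972-58240661). Several of these runs are arrays of related copies, so neighbours there are not independent measurements.

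Germline genes, those active in germ cells and silent in most somatic tissues, were examined by role. Several were already transcribed in the control mESCs and rose further. In the piRNA pathway, which silences transposons in the male germline, 7 of 24 genes (beside 10.3% of all genes) rose and 2 fell, the latter near the 8.94% of all genes, with a median log2 fold change of 0.18. Morc1, a chromatin ATPase required for transposon silencing in the male germline (chr16:48431237-48630900), gave 30.2 and 29.9 CPM in the NT lines and 125 and 114 CPM in the KO lines (log2 fold change 2.00 ± 0.09, adjusted p = 8.82e-08). Tdrd12, a Tudor domain factor of piRNA biogenesis, went from 45.5 and 35.9 CPM to 155 and 171 CPM. Fkbp6, a co-chaperone of piRNA loading, went from 1.28 and 1.54 CPM to 19.3 and 25.5 CPM (log2 fold change 3.99 ± 0.20, adjusted p = 1.17e-07). Not all members moved one way. Ddx4 (Vasa), the germ cell RNA helicase, fell from 30.1 and 36.6 CPM to 20.6 and 18.9 CPM (log2 fold change -0.75, adjusted p = 0.00131), and Tdrd5 fell by 0.62 on the log2 scale.

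Meiotic genes were held in 3 lists, whose counts stand beside 10.3% higher and 8.94% lower over all genes. The share that fell was near that of all genes in the axis list (6.67%) and the entry list (8.33%). Of 15 genes of the synaptonemal complex and meiotic axis, 5 rose and 1 fell (median log2 fold change 0.36). Hormad1, an axis protein of unsynapsed chromosomes, gave 4.42 and 4.15 CPM in the NT lines and 26.7 and 20.8 CPM in the KO lines (log2 fold change 2.47 ± 0.17, adjusted p = 9.73e-07). Smc1b, the meiotic cohesin subunit, went from 1.47 and 1.21 CPM to 4.34 and 6.83 CPM. The cohesin subunit Rec8 was the member that fell, by 0.58 on the log2 scale. Of 24 meiotic recombination genes 7 rose and none fell (median 0.25), or 4 without NT line 2, and of 12 genes of meiotic entry 3 rose and 1 fell (median 0.49). Stra8, the retinoic acid target that opens meiosis, gave 23.1, 18.8, 11.2 and 17.3 CPM and did not pass the test (adjusted p = 0.0520).

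Among 32 germ cell regulators of RNA and chromatin, 11 (34.4%) rose and 2 (6.25%) fell (median 0.52). Over all genes 10.3% were higher and 8.94% lower, which also stands beside the next lists. Usp26, an X-linked deubiquitinase of the testis (chrX:51753959-51801233), had the smallest p of any gene tested. It gave 0.463 and 0.412 CPM in the NT lines and 36.2 and 26.2 CPM in the KO lines (log2 fold change 6.14 ± 0.24, adjusted p = 2.74e-08). D1Pas1, a testis DEAD-box helicase, went from 13.7 and 9.31 CPM to 59.9 and 47.8 CPM, and Dppa3 (Stella), a maternal factor that protects the zygote's methylation, from 23.2 and 13.9 CPM to 78.3 and 55.8 CPM. Of 7 X-linked Rhox homeobox genes tested 5 rose and none fell (median 1.97). Another 25 members of the family were not testable, and of the 6 with control reads 5 rose. Rhox5 differed between the clones, at 13.8 CPM in KO line 1 and 4.05 CPM in KO line 2. None of the 3 Fthl17 genes passed the test. Of 15 genes that specify primordial germ cells 4 rose and 3 fell (median -0.24), or 4 and 5 without KO line 1, so neither direction led. Ifitm1 went from 87.3 and 79.2 CPM to 251 and 193 CPM, while Prdm14, which both germ cell specification and naive pluripotency use, went from 21.1 and 23.9 CPM to 11.0 and 9.77 CPM.

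The study sorted the genes that rose in its E8.5 knockout embryos into classes by where their transcripts begin. The classes were chosen on the embryo libraries, which the mESC libraries did not enter. Of the 86 genes that start at their annotated promoter and were testable in mESCs, 37 (43.0%) rose and 4 (4.65%) fell, beside 10.3% and 8.94% of all genes, with a median log2 fold change of 0.60. Of the 32 genes whose transcripts are spliced from a LINE-1 element of the young L1MdT subfamily, 21 (65.6%) rose and none fell, the median was 2.44, and all 32 estimates were above 0. Another 14 members of that class were not in the mESC table, and of the 31 with control reads 20 rose. Other transposons drove 10 testable genes, of which 7 rose, and 8 further genes had another origin, of which 3 rose. Over all classes 68 of 136 genes (50%) rose and 4 fell.

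Usp26, Hormad1, D1Pas1, Tuba3a, Rnf17, Dppa3 and Mael belong to the annotated promoter class. Tuba3a, a testis tubulin, went from 10.5 and 8.95 CPM to 24.7 and 29.6 CPM, and Mael (Maelstrom), a piRNA factor, from 9.05 and 8.98 CPM to 19.5 and 25.3 CPM (log2 fold change 1.31). The 4 members of the class that fell were Foxj1, the master regulator of motile cilia, Cfap54, a ciliary protein, Ddx4 and Zyg11a. Foxj1 went from 9.26 and 9.80 CPM to 3.14 and 3.49 CPM.

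Morc1, described with the piRNA genes, belongs to the L1MdT class. Pkhd1, the gene of recessive polycystic kidney disease (chr1:20057779-20618064), gave 0.295 and 0.055 CPM in the NT lines and 5.97 and 4.58 CPM in the KO lines (log2 fold change 4.79 ± 0.44, adjusted p = 9.40e-06). Dnah12, an axonemal dynein, went from 0.168 and 0.467 CPM to 6.49 and 4.76 CPM. Gc, the vitamin D binding protein of plasma, went from 2.38 and 1.13 CPM to 12.9 and 12.9 CPM. The gene table counts whole genes, so these values do not show where the transcripts began in mESCs. In the class driven by other transposons, Pla2g1b, a secreted phospholipase, went from 18.9 and 13.5 CPM to 95.1 and 97.9 CPM (log2 fold change 2.57 ± 0.14, adjusted p = 1.54e-07).

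**Figure D3:**
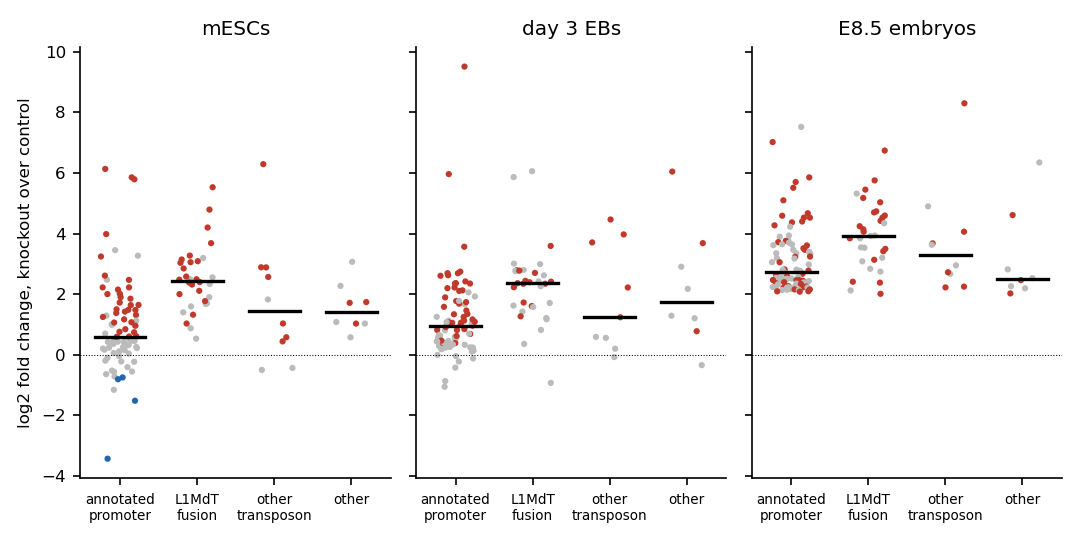
Log2 fold changes, knockout over control, of the embryo target classes on the y axis, each point a gene, with the classes on the x axis and panels for mESCs, day 3 EBs and E8.5 embryos. The embryo values chose the classes; in mESCs the median is 0.60 for the annotated promoter class and 2.44 for the L1MdT class.

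Promoters of the annotated promoter class were read for 2 motifs of factors in the PRC1.6 complex: the E-box CACGTG, bound by MGA with MAX, and GCGGGAA, bound by E2F6 (both strands searched, and neither motif contains the other). Windows ran from 250 bases before to 50 after each start in RefSeq (GRCm38.p6), and 12994 of the 20159 genes matched by symbol. The E-box occurred in 14 of 61 (23.0%) windows of the class, beside 11.2% of the matched genes, 10.8% of the higher and 10.7% of the lower genes, 5.93% of those at least 4-fold higher and 7.15% of all 32851 windows in RefSeq. GCGGGAA occurred in 8 of 61 (13.1%), beside 9.24%, 7.48%, 10.4%, 2.43% and 4.6% in the same order. Among the 27 matched members of the class that rose in mESCs, each motif was in 3 (11.1%), a share near that of all matched genes. These counts are a description of letters and do not show binding.

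The promoters of 3 genes that hold a motif and that rose follow as the 250 bases before the start, 5′ to 3′ on the gene's strand, with the motif or its reverse complement in capitals. Hormad1 (chr3:95559427-95559676, plus strand, log2 fold change 2.47) holds GCGGGAA that begins 95 bases before the start and a pair of E-boxes, the nearer beginning 20 bases before it. Tuba3a (chr6:125286082-125286331, minus strand, 1.48) holds TTCCCGC, beginning 120 bases before the start. Mael (chr1:166238745-166238994, minus strand, 1.31) holds an E-box beginning 223 bases before it.
Hormad1: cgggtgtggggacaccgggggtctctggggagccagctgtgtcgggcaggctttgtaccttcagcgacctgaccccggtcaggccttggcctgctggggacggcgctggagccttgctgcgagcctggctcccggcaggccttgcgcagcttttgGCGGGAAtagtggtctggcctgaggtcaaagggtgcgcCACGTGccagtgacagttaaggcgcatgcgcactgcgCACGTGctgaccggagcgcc
Tuba3a: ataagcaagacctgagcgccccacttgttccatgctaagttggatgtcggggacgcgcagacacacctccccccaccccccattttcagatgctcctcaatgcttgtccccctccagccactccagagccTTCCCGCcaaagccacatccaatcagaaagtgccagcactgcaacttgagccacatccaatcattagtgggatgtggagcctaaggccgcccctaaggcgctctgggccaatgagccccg
Mael: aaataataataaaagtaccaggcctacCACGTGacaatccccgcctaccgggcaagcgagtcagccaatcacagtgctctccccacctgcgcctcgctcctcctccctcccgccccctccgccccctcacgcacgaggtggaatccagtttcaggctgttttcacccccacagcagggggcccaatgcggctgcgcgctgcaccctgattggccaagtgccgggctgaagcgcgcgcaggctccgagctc

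Pluripotency genes separated by state. Of 20 naive pluripotency genes, 11 (55%) fell and 4 (20%) rose, with a median log2 fold change of -0.37. Over all genes 8.94% were lower and 10.3% higher. Klf4, a naive factor induced by LIF (chr4:55527143-55532466), had one of the smallest p-values among lower genes, with 346 and 389 CPM in the NT lines and 93.5 and 106 CPM in the KO lines (log2 fold change -1.88 ± 0.09, adjusted p = 9.15e-08). Tfcp2l1 went from 147 and 153 CPM to 54.1 and 33 CPM, Esrrb from 647 and 652 CPM to 358 and 331 CPM, and Tbx3 from 45.5 and 49.0 CPM to 16.4 and 18.1 CPM. Nanog fell less, from 358 and 439 CPM to 326 and 256 CPM (log2 fold change -0.45, adjusted p = 0.0146). Zfp42 (Rex1), a common naive reporter, gave 357, 367, 365 and 343 CPM and did not pass the test (adjusted p = 0.825). The 4 naive genes that rose were Fbxo15, Pecam1, Dppa3 and Klf2.

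Genes of the formative and primed states went the other way, with 14 of 21 higher, 1 lower and a median of 0.97. Over all genes 10.3% were higher and 8.94% lower. Otx2, the homeobox factor of the formative transition, gave 5.93 and 5.57 CPM in the NT lines and 27.6 and 34.1 CPM in the KO lines (log2 fold change 2.42 ± 0.15, adjusted p = 5.01e-07). Fgf5, the classic epiblast marker, went from 0.337 and 0.055 CPM to 3.29 and 3.68 CPM. Pim2 went from 34.1 and 21.4 CPM to 219 and 273 CPM, Zic2 from 27.7 and 12.9 CPM to 86.9 and 103 CPM, and Pou3f1 (Oct6) from 19.3 and 15.9 CPM to 44.2 and 68.5 CPM. In these genes the KO lines were far apart from the NT lines, although the clones within a genotype also differed, as Zic2 shows for the NT lines. Etv4, an ERK-responsive ETS factor, was the member that fell, from 206 and 214 CPM to 92.9 and 99.0 CPM. In the 18 core pluripotency genes 10 rose and 3 fell, by small amounts (median 0.30).

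The de novo DNA methylation enzymes rose. Dnmt3b gave 240 and 170 CPM in the NT lines and 561 and 769 CPM in the KO lines (log2 fold change 1.70 ± 0.15, adjusted p = 8.38e-06). Dnmt3l, their catalytically inactive cofactor, went from 289 and 176 CPM to 619 and 540 CPM, and Dnmt3a from 200 and 147 CPM to 297 and 397 CPM. Tet1 and Tet2, which oxidise methylcytosine, fell by 0.43 and 0.67 on the log2 scale. Over the 15 genes of DNA methylation and demethylation, 4 (26.7%) rose and 2 (13.3%) fell, beside 10.3% and 8.94% of all genes.

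LIF, JAK and STAT3 signalling fell as a list, with 13 of 23 genes lower and 1 higher (Il6ra, log2 fold change 1.46), and a median of -0.49. Over all genes 8.94% were lower and 10.3% higher. Socs3, the feedback inhibitor that STAT3 induces, went from 266 and 277 CPM to 146 and 140 CPM. The receptor gene Lifr went from 36.6 and 36.3 CPM to 25.7 and 21.5 CPM, Jak1 from 57.6 and 57.9 CPM to 35.4 and 32.8 CPM, and Stat3 from 106 and 103 CPM to 75.3 and 73.2 CPM. Receptor, kinase, transcription factor and targets were thus each lower in both KO lines than in both NT lines. The list shares Klf4, Tfcp2l1, Gbx2, Socs3 and Stat3 with the naive list, so the lists are not independent.

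Other signalling lists had calls in both directions, beside 10.3% higher and 8.94% lower over all genes. Of 26 Nodal and TGF-beta family genes 9 fell and 4 rose (median -0.15), or 10 and 7 without KO line 2. Inhbb, the activin beta B subunit, went from 81.2 and 89.2 CPM to 20.6 and 21.2 CPM (log2 fold change -2.03 ± 0.10, adjusted p = 1.17e-07), and Bmp7 fell by 2.06 and Bmp4 by 1.32 on the log2 scale. Id3, a BMP target, rose from 23.4 and 20.6 CPM to 64.1 and 60.6 CPM. Of 25 genes of FGF signalling and ERK feedback 7 rose and 5 fell, or 8 and 3 without KO line 2, beside 10.3% and 8.94% of all genes.

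Primitive and visceral endoderm genes, those of another lineage that arises in mESC cultures, were lower as a list (median -0.88). Of its 21 genes 7 fell, 5 of them at least 4-fold, and 1 rose, beside 8.94% and 10.3% of all genes. Gata6, the lineage's defining factor, was low in all lines, at 2.78 and 1.04 CPM in the NT lines and 0.204 and 0.34 CPM in the KO lines (log2 fold change -2.82 ± 0.53, adjusted p = 0.00217). The basement membrane genes Col4a1 and Lama1 were abundant. Col4a1 went from 80.4 and 43.4 CPM to 17.2 and 18.9 CPM and Lama1 from 103 and 96.3 CPM to 45 and 35 CPM. The endocytic receptor Lrp2 was the member that rose, by a log2 fold change of 1.21, and its partner Cubn fell, with 6.73 CPM in NT line 1 and 1.46 CPM in NT line 2, so NT line 1 was the higher control for several of these genes.

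**Figure D4:**
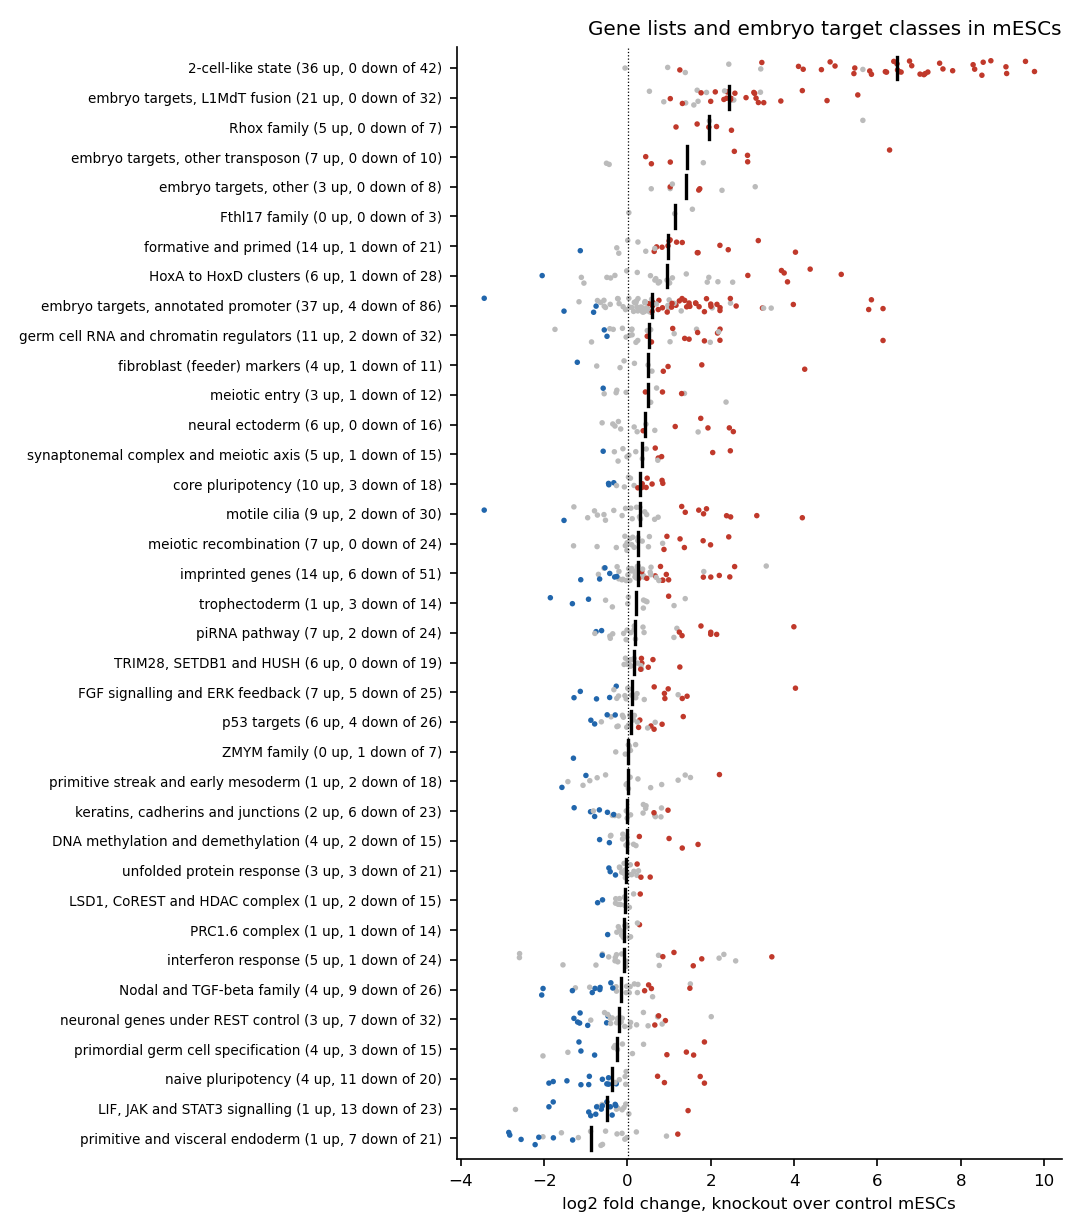
Gene lists and embryo target classes on the y axis, with the number higher, lower and tested, and the log2 fold change, knockout over control mESCs, on the x axis for each member and for the list's median. The 2-cell-like list (median 6.48) stands furthest to the right, and the primitive and visceral endoderm list (median -0.88) furthest to the left.

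Of 16 neural ectoderm genes 6 rose and none fell (median 0.41), beside 10.3% and 8.94% of all genes. Pax6 went from 5.56 and 2.91 CPM to 28.4 and 18.4 CPM (log2 fold change 2.45 ± 0.26, adjusted p = 3.57e-05), while Olig2, which was not on that list, fell from 59.7 and 53 CPM to 9.54 and 12.4 CPM. Of 32 neuronal genes that REST represses through CoREST, 3 rose (9.38%, near the 10.3% of all genes) and 7 fell (median -0.20), or 2 and 5 without KO line 1 or NT line 2. Of the 28 Hox genes 6 rose and 1 fell, and all 6 lie in the anterior and middle part of the HoxB cluster. Hoxb1 (chr11:96365752-96368256) gave 0.126 and 0.110 CPM in the NT lines and 3.23 and 5.35 CPM in the KO lines (log2 fold change 5.13 ± 0.43, adjusted p = 4.56e-06). Hoxb1 to Hoxb9 together held 2.88, 2.64, 13.7 and 21.1 CPM, while none of the 8 Hoxa, 4 Hoxc and 6 Hoxd genes tested passed the test. Hoxb13, at the far end of the cluster, fell by 2.05 on the log2 scale.

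Among single genes outside these lists, Liph, a phospholipase, gave 4.57 and 4.56 CPM in the NT lines and 36.5 and 36.8 CPM in the KO lines (log2 fold change 3.01 ± 0.14, adjusted p = 8.02e-08). Tmem40 went from 2.02 and 1.02 CPM to 37.3 and 37.6 CPM, and Car2, a carbonic anhydrase, from 36.3 and 31.6 CPM to 127 and 141 CPM. Chit1, a chitinase, had no read in the NT lines and 4.66 and 3.40 CPM in the KO lines, at least 113-fold higher. Among lower genes, Cobl, an actin nucleator, went from 265 and 340 CPM to 51.9 and 56.1 CPM (log2 fold change -2.48 ± 0.11, adjusted p = 8.02e-08). Nfkb1 went from 91.6 and 91.7 CPM to 27.9 and 29.5 CPM, and Cpe, carboxypeptidase E, from 38.4 and 63.4 CPM to 4.98 and 5.10 CPM. Among genes above 1 CPM in the NT lines, the homeobox gene Nkx6-3 had the largest fall, from 6.73 and 6.54 CPM to 0.145 and 0.247 CPM (log2 fold change -5.06 ± 0.33, adjusted p = 7.96e-07).

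In the list of 15 LSD1, CoREST and HDAC genes 1 rose and 2 fell, a share near the 10.3% and 8.94% of all genes, and 4 fell without KO line 2. Rcor1 (CoREST) went from 44.5 and 46.4 CPM to 28.0 and 27.4 CPM (log2 fold change -0.72, adjusted p = 0.000412), while Kdm1a (LSD1) gave a log2 fold change of -0.17 (adjusted p = 0.138). Of 14 PRC1.6 genes 1 rose and 1 fell. Of 19 TRIM28, SETDB1 and HUSH genes 6 rose and none fell, by small amounts for most. Trim28 went from 2302 and 2162 CPM to 2806 and 2870 CPM, and Zfp809, a zinc finger repressor of proviruses that is also counted among the 2-cell-like genes, by a log2 fold change of 1.26. Of 51 imprinted genes 14 rose and 6 fell (median 0.25), or 11 and 3 without NT line 2, among them Smoc1 with a log2 fold change of 2.00 and Snrpn with one of 0.84.

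Markers of other cells and of the clones were measured beside these results. The summed level of 11 fibroblast feeder markers was 33.5, 29.1, 46.5 and 50.7 CPM in NT lines 1 and 2 and KO lines 1 and 2. Of these 11 markers 4 were higher and 1 lower, beside 10.3% and 8.94% of all genes. The collagen gene Col1a1 stayed between 0.934 and 2.07 CPM in all 4 lines. Of the 10 Y-linked genes tested, 5 were higher in the KO lines and none lower, although V6.5 is male. Eif2s3y had 5 and 0 counts in the NT lines and 116 and 182 in the KO lines (log2 fold change 6.17, adjusted p = 1.02e-05), and Ddx3y had 1 and 0 against 32 and 13. Uba1y, Usp9y and Uty also rose, and Uba1y is counted in the annotated promoter class. These 5 genes were near 0 in both control clones, while the other Y-linked genes did not pass the test. Among the latter, Gm47283 had 4820 and 2744 counts in the NT lines and 2263 and 3438 in the KO lines, and the rest had at most 29 counts in any line. Whether the Gm47283 reads came from the Y chromosome or from similar sequence elsewhere was not tested. The part of the Y chromosome and of clonal history in the autosomal results was not tested, and with 2 clones a side such a difference between clones and the effect of Zmym2 cannot be told apart.

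The same 4 lines were sequenced as day 3 EBs, which share the clones but not the libraries. There, 931 of 20142 genes (4.62%) were higher and 558 (2.77%) lower in the knockouts. The higher genes in common numbered 552, which is 26.7% of those in mESCs and 59.3% of those in EBs, beside 4.62% and 10.3% of all genes, and 27 genes higher in mESCs were lower in EBs. The lower genes in common numbered 240, or 13.3% and 43.0%, beside 2.77% and 8.94%, and 34 genes lower in mESCs were higher in EBs. Because the clones are the same, the overlap holds differences between clones as well as between genotypes. In the E8.5 embryos 116 of 22729 genes (0.51%) were higher and 3 (0.0132%) lower. Of the 116, 102 were tested in mESCs and 52 were also higher there. These 52 are 44.8% of the embryo's genes and 2.51% of those in mESCs, beside 10.3% and 0.51% of all genes. The target classes above follow the study's own embryo calls, and 70 of their 136 genes tested in mESCs were higher in this embryo fit.

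Whether the knockout effect differed between the stages was tested as an interaction of stage and genotype, which passed for 993 of 18926 genes (5.25%). With the clonal line as a block, which is a true pairing here because each line was sampled at both stages, 2325 genes passed. The count without the block was fragile: it was 404 to 488 without any 1 EB library and 454 without mESC NT line 2. Over all genes the difference, mESCs less EBs, was above 0 in 412 and below in 581, or in 1026 and 1299 with the block. Genes chosen for a call in one stage tend to show the larger effect there, so counts among them were not read.

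Several pluripotency genes differed between the stages, and the values that follow come from the fit without the block. Klf4 gave a log2 fold change of -1.88 in mESCs and 0.16 in EBs (difference -2.07, adjusted p = 0.000245), and Otx2 gave 2.42 in mESCs and -0.29 in EBs (difference 2.71, adjusted p = 1.40e-05). In EBs Klf4 was low in every line, at 2.55 and 2.07 CPM (NT) and 3.01 and 2.11 CPM (KO). A fall there had little room to appear. Otx2 stood at 144 and 171 CPM (NT) and 124 and 133 CPM (KO) in EBs. Both genes were named for small p-values in mESCs, whose counts enter this test. Among formative and primed genes 13 had an interaction above 0 and 1 below, and among naive genes 1 above and 9 below, or 15 and 1, and 1 and 12, with the block. The lists were written with earlier results of these data known, and their mESC values enter this test. These counts therefore describe the lists and do not test them. Of the 37 genes of the 2-cell-like state tested in EBs, 32 rose there too. For only 20 of these 37 did every group hold reads, which a difference between the stages needs, and among the 20 none passed without the block and 1, above 0, with it. A p that misses the threshold does not show that the effects were equal. Of the annotated promoter class 42 of 82 genes rose in EBs, with an interaction above 0 in 2 and below in 10, or in 4 and 18 with the block. Usp26 was among those below 0 (log2 fold change 6.14 in mESCs and 9.51 in EBs, difference -3.37, adjusted p = 0.0237). Its KO levels were 36.2 and 26.2 CPM in mESCs and 39.0 and 28.4 CPM in EBs. Its NT levels were 0.463 and 0.412 CPM in mESCs and 0.030 and 0.054 CPM in EBs. The EB controls were thus near 0, so the size of this difference is uncertain. Of the L1MdT class 14 rose in EBs, and of its 30 genes with reads in every group none had an interaction past the threshold with or without the block.

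**Figure D5:**
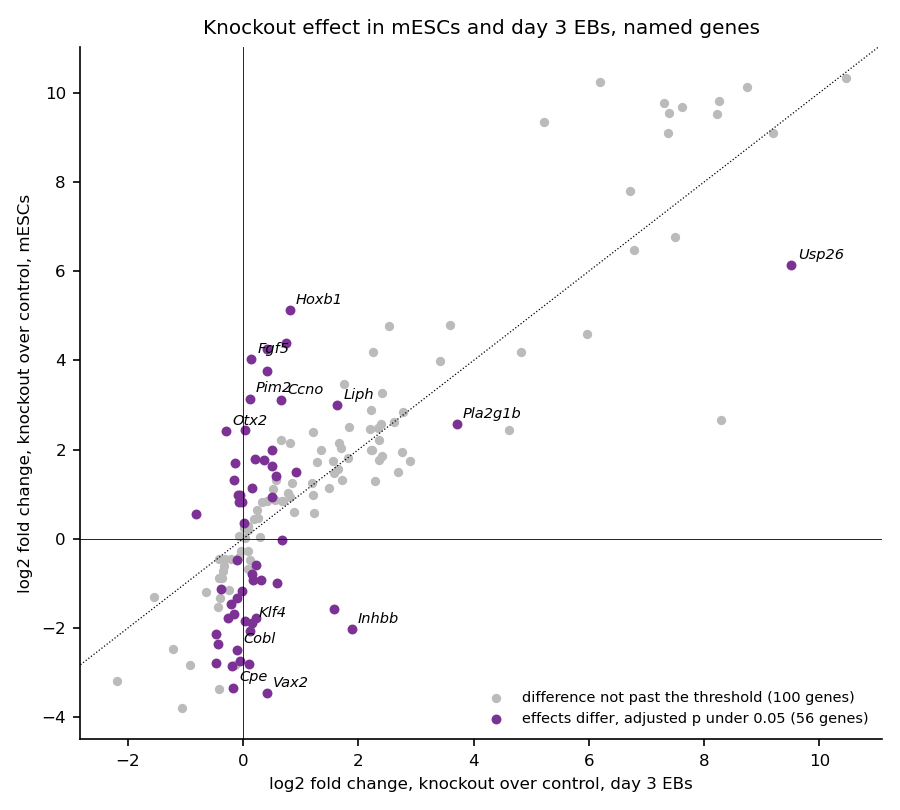
Named genes by their log2 fold change, knockout over control, in day 3 EBs (x axis) and in mESCs (y axis), with coloured points where the 2 effects differ at an adjusted p under 0.05. Otx2 lies at 2.42 in mESCs and -0.29 in EBs, and Klf4 at -1.88 in mESCs and 0.16 in EBs.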

How the data were processed

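Upstream, the authors used Trimmomatic 0.34 for trimming, STAR 2.7.8a for alignment to mm10 (GRCm38), Picard 2.9.0 for marking duplicates and HTSeq for counting reads per gene. The deposited count tables hold these raw counts, without normalization, and leave out genes under 10 counts in all. The deposited RPKM values, scaled by gene length and mapped reads, come from the authors' quantification with StringTie 1.3.5. Annotation, HTSeq version and its strand setting are not given in the sources used here, so overlapping and antisense genes can share reads. The authors' normalized count columns were not used, nor were the embryo RPKM values.

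Groups came from the sample titles. Counts were tested in R 4.3.3 with edgeR 4.0.16 (TMM scaling, quasi-likelihood test, two-sided, Benjamini-Hochberg adjustment over all genes tested, threshold 0.05, with a 4-fold minimum where stated), in mESCs, EBs and embryos separately, and as a stage by genotype interaction over the 8 line libraries. SE is the standard error of the log2 fold change. With 2 clonal lines a group, p-values rest on the spread between these clones, which edgeR moderates for each gene towards a trend over all genes. Printed CPM use TMM-scaled library totals. Intervals and floors (3 counts over a group) cover counting error only. DESeq2 1.42.0 and limma 3.58.1 on RPKM were alternatives, with other scalings, filters, a replicate block and each library left out. The fits were checked on simulated counts with the same dispersion for every gene and changes placed only in genes with many counts. That check does not cover low genes. The sorting of genes by mean level, counts over members with control reads and list counts with the line block were chosen after seeing the data. Gene positions are from GENCODE M21 and promoters from RefSeq, both GRCm38, and all 1-based.

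The gene lists and compared sets were chosen with earlier results of these data known. Named genes were Zmym2, the 12 largest fold changes each way (groups not overlapping, at least 1 CPM in the higher group), the 6 smallest p each way, the 10 smallest p in the 2 main embryo target classes and 4 in the others, up to 3 per list, and the 3 largest gaps between lines. Other members of a list were chosen after their values were seen, to illustrate it. The mESC replicates with the same number did not deviate together (r = -0.0496 over 13585 genes).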

Additional observations from a re-analysis of the deposited data

Results flagged for a closer look

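The knockout effect of 56 named genes differed between mESCs and day 3 EBs in the interaction test (edgeR's quasi-likelihood test, Benjamini-Hochberg adjusted p under 0.05). Named genes were chosen largely by their values in mESCs, which enter this test. Their number was therefore not read as a result beside the 5.25% of all genes that passed. Values are the log2 fold change in mESCs less that in EBs, and no explanation was tested.

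Among pluripotency and signalling genes, the difference was below 0 for Klf4 (-2.07), Tfcp2l1 (-2.01), Tbx3 (-1.24), Esrrb (-1.24), Socs3 (-1.12), Zfp42 (-0.70), Kit (-1.15), Etv4 (-0.76), Inhbb (-3.95) and Bmp7 (-2.17). It was above 0 for Otx2 (2.71), Fgf5 (3.87), Pim2 (3.03), Fgf15 (1.47), Dnmt3b (1.83), Grhl2 (1.03), Foxd3 (0.90), Id3 (0.58), Ifitm1 (0.85), Ifitm3 (0.45) and Trim28 (0.33).

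Among genes of later lineages, it was above 0 for Hoxb1 (4.32), Hoxb2 (3.35), Hoxb4 (3.65), Pax6 (2.42), Nes (0.99), Dll1 (1.39), Acta2 (3.83), Tagln (1.06), Thy1 (1.58) and the multiciliation gene Ccno (2.44). It was below 0 for Cdx1 (-3.15), Mesp2 (-1.59), Tead4 (-1.88), Vax2 (-3.88), Olig2 (-1.93), Col4a1 (-1.52), Col4a2 (-1.65) and Lama1 (-1.21).

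Among germline genes, embryo targets and imprinted genes, it was below 0 for Usp26 (-3.37), Rec8 (-0.81) and Pla2g1b (-1.14), and above 0 for Nlrc4 (1.13) and Snrpn (0.85).

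The rest were Cobl (-2.38), Nfkb1 (-1.52), Cpe (-3.15), Tgm2 (-2.31), Rapgef3 (-2.69), Slc38a5 (-2.89), Lonrf2 (-2.66), Perp (-0.95) and Wdr5 (-0.37) below 0, and Car2 (1.48), Liph (1.38) and Chac1 (1.37) above 0.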

How the results depend on the processing

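The counts of 2068 higher and 1803 lower genes stayed within 1.5 times under DESeq2 (1710 and 1557), other scalings and other filters, and no call turned its sign in any setting run, although 600 of the higher and 529 of the lower genes passed in every one. limma on log2(RPKM + 0.1) called 1194 and 829 genes, 333 and 24 of them by at least 4-fold, with 24 of the annotated promoter class and 171 list members. On log2(RPKM + 1) it called 911 and 655, 58 and 5 by at least 4-fold, with 17 of the annotated promoter class, 4 of the other transposon class and 135 list members. A filter of 1 CPM in 2 libraries, which leaves fewer genes, gave 291 and 39 by at least 4-fold, and a fit of all 8 line libraries called 5 genes of the class of other origin.

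Leaving out each library in turn gave 1330 to 1996 higher and 1021 to 1862 lower genes, 548 to 704 and 62 to 118 by at least 4-fold, 27 to 38 genes of the annotated promoter class, 16 to 20 of the L1MdT class and 221 to 275 list members; 1027 of the higher and 794 of the lower genes passed in all 4 of these fits. The lowest counts came without NT line 2 and the 118 without KO line 2. Fthl17f ranged from -0.22 to 0.38 (log2), Sox2 from -0.00045 to 0.0612, Zfp42 from -0.0714 to 0.0195 and Tdgf1 from -0.49 to 0.0053, and none of these 4 passed the test. The cause was not tested.

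Replicate numbers do not pair the mESC lines. With the replicate number as a block, 2064 genes were higher and 1866 lower, 707 and 83 by at least 4-fold. The interaction passed for 2325 genes with the line as a block, against 993 without it, and for 404 to 1221 with 1 library left out. What size of change 2 lines a group can detect was not measured for low genes.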

Other observations

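Further lists had calls in both directions, beside 10.3% higher and 8.94% lower over all genes. Of 30 motile cilia genes 9 rose and 2 fell (median log2 fold change 0.29). Ccno, a regulator of multiciliation, went from 2.59 and 1.68 CPM in the NT lines to 20.5 and 16.7 CPM in the KO lines, while Foxj1 fell. Of 24 interferon response genes 5 rose and 1 fell, led by Oas1a with 0.316 and 0.412 CPM against 4.34 and 3.68 CPM, but 3 rose and 4 fell without KO line 2, and 8 and 2 without KO line 1. Of 26 p53 targets 6 rose and 4 fell, or 2 and 3 without NT line 2. Of 21 genes of the unfolded protein response 3 rose and 3 fell, or 1 and 0 without NT line 2. Of 23 keratin, cadherin and junction genes 2 rose and 6 fell, or 3 and 3 without NT line 2 and 5 and 6 without KO line 1. Of 14 trophectoderm genes 1 rose and 3 fell, Tead4 among the latter, and of 18 primitive streak and early mesoderm genes 1 rose and 2 fell. The shares were 7.14% higher and 21.4% lower for trophectoderm, and 5.56% and 11.1% for the streak list. Each of these shares rests on 1 to 3 genes.

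Some called genes differed between the 2 clones of 1 genotype. Fmr1nb gave 1.39 and 0.110 CPM in the NT lines, and Smtnl1 0.505 and 0 CPM, both well below the KO lines (15.1 and 14.2 CPM, and 9.25 and 6.12 CPM). Gipc2 gave 1.31 and 0.124 CPM in the KO lines. Gm9 had 0.960 CPM in KO line 1 and 0.031 CPM in KO line 2, with no read in the NT lines.

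Median log2 fold changes by chromosome lay between -0.0912 and 0.0295 for the autosomes and X. For 12 mitochondrial genes, KO line 1 stood at a median of 0.585 (log2) above the other lines.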
